A study of Mus musculus with 4 samples.

Results

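The 10 genes described here encode immune checkpoint proteins and regulators of T cells: the inhibitory receptors Pdcd1 (PD-1), Ctla4, Lag3, Tigit and Havcr2 (TIM-3), the inhibitory ligand Cd274 (PD-L1), the costimulatory receptors Icos, Tnfrsf9 (4-1BB) and Tnfrsf18 (GITR), and Foxp3, the transcription factor that defines regulatory T cells. They were chosen by symbol among the 23282 gene rows of lung RNA, which carry 23238 distinct symbols, and each of the 10 symbols had 1 row. The lungs came from male CDF1 mice in groups of 10 mice, with 1 library per group. The samples are labelled as postnatal day 28. The study bought the mice at 4 weeks of age and took tissues only at the end of the experiment, so the lungs were older than the label. Normal control mice, E(-)T(-), neither ran nor carried tumor. Normal exercise mice, E(+)T(-), ran on a treadmill at high intensity. Cancer control mice, E(-)T(+), carried lung tumor seeded by tail vein injection of CT26, a line of mouse colorectal carcinoma. Cancer exercise mice, E(+)T(+), had both. The cells were injected into blood rather than arising in the tissue, and the study took muscle from 1 representative mouse per group but does not say outright whether each lung library was also from 1 mouse. There were no replicates, so every difference below is a difference between libraries, with intervals that cover counting error alone. Where 4 values are listed for a gene, they stand in the order normal control, normal exercise, cancer control, cancer exercise.

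T cells recognize antigen through the T cell receptor and take their further instructions from costimulatory and coinhibitory receptors. PD-1, CTLA-4, LAG-3, TIGIT and TIM-3 are induced on activated T cells and restrain them when engaged by ligands on antigen-presenting or tumor cells, and antibodies against several of them are used to treat cancer. ICOS, 4-1BB and GITR deliver positive signals, and are also carried by regulatory T cells, which hold other T cells in check. TIM-3 and PD-L1 are made by myeloid cells as well.

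Depth and composition set limits on genes of this abundance. The libraries held 9354530 to 13368047 gene-assigned reads. The limit that a count of 0 allows, 3 reads, corresponded to 0.224 to 0.321 CPM, the reads of a gene scaled to the library total. The share of hemoglobin genes was 14.3%, 14.2%, 1.43% and 31.4%. The epithelial and endothelial markers of lung, 11 genes that include Sftpc, Scgb1a1 and Pecam1, were present in every library, but all 11 were lower by 2-fold or more in cancer control than in normal control, with a median log2 difference of -2.73, where 25.7% of all filtered genes were lower. In the normal exercise library, 9 genes with no read in normal control and at least 500 normalized counts in cancer control all had reads, at 0.642% to 2.18% of their cancer control level with a median of 1.47%. Values that involve normal exercise are therefore also given with that median share taken out where it changes a call.

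The members differed widely in abundance, and 7 of the 10 had a mean normalized read count of 4 or more across libraries, a filter met by 15164 of all rows. Tigit had 1 read in cancer control and was listed with 0 reads in the other libraries. Lag3 had 2 reads in cancer control and likewise 0 elsewhere. Pdcd1 had 4, 5, 6 and 0 reads, and its mean normalized count of 3.64 lay just under the filter. For these 3 inhibitory receptors differences between the groups were not detectable at this depth, apart from the absence of Pdcd1 reads in cancer exercise against 6 in cancer control, for which the exact interval of the log2 read ratio ended at -0.14.

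**Figure D1:**
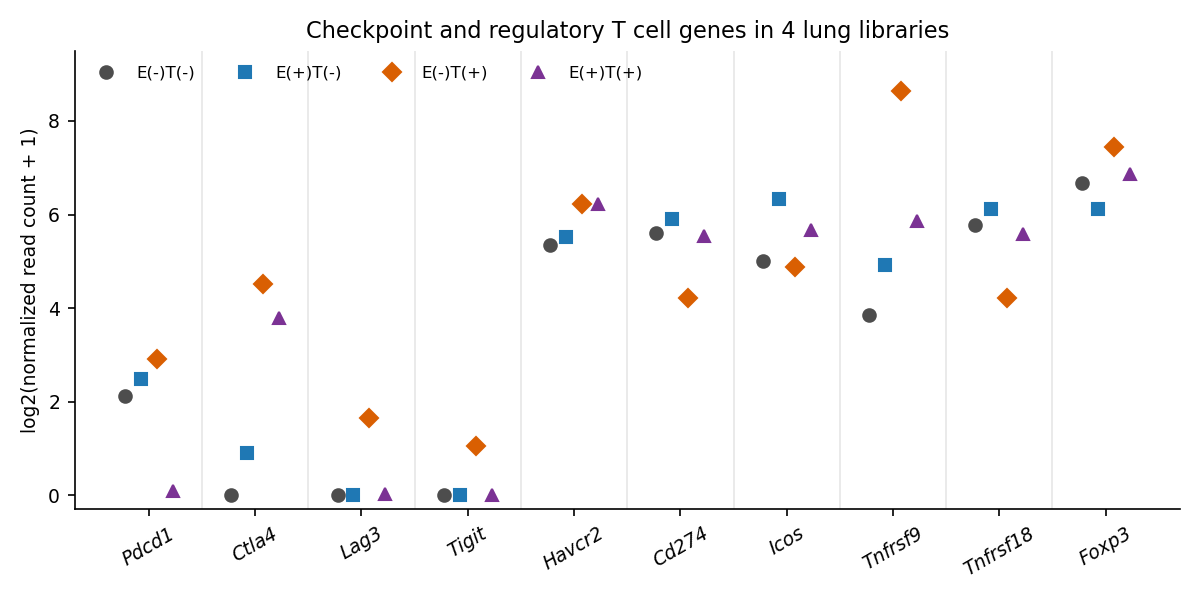
Level of each member in each library, as log2(normalized read count + 1), 1 point per library. Tnfrsf9 spans the widest range, from 3.85 in normal control to 8.63 in cancer control, while Lag3 and Tigit stay at or near 0 outside cancer control.

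Tnfrsf9 and Ctla4 were the members that rose most with tumor. Their promoter sequences are shown with those of Cd274 and Tnfrsf18, which were lower in cancer control than in normal control. In that comparison these pairs moved in opposite directions. The set of RefSeq start sites used here, on build GRCm38.p6, gave windows for 8 of the 10 members. Each window held 250 bases before and 50 bases after a transcription start. No start site in that set was matched to Lag3 or Icos. Matches on either strand to 6 short patterns are in capitals: GGG and CC with 5 bases between for NF-kappaB, TGANTCA for AP-1, TTTC and TTTC with 2 bases between for interferon response elements, TTC and GAA with 3 bases between for gamma activated sites, GGAAA and TCA with 4 bases between for NFAT with AP-1 and TGTGGT for RUNX. Tnfrsf9 has 2 annotated starts, at chr4:150919905-150920204 and chr4:150927749-150928048 (plus strand). The windows of Ctla4 (chr1:60908775-60909074), Cd274 (chr19:29367188-29367487) and Tnfrsf18 (chr4:156026072-156026371) are also on the plus strand.
Tnfrsf9, second start: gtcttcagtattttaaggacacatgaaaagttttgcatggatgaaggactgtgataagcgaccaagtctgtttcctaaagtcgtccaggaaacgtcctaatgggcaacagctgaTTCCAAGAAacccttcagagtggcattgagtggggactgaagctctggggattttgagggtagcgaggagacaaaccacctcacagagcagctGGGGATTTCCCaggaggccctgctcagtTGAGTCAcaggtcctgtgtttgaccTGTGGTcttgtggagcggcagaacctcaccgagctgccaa
Tnfrsf9, first start: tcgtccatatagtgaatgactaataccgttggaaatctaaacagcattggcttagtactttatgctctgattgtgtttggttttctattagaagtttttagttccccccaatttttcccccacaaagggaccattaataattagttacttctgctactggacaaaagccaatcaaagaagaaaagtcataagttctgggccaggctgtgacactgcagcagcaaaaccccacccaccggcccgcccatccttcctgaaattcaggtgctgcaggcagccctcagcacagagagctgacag
Ctla4: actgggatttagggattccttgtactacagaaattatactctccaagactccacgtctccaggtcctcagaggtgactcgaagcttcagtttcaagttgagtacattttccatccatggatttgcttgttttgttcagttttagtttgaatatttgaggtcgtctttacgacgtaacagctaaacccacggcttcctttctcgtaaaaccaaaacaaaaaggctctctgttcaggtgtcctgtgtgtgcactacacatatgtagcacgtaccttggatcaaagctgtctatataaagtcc
Cd274: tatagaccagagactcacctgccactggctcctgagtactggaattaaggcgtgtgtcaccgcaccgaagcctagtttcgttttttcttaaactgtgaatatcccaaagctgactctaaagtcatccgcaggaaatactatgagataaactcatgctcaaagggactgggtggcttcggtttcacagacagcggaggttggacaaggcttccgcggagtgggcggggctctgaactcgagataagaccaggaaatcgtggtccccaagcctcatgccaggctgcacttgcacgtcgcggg
Tnfrsf18: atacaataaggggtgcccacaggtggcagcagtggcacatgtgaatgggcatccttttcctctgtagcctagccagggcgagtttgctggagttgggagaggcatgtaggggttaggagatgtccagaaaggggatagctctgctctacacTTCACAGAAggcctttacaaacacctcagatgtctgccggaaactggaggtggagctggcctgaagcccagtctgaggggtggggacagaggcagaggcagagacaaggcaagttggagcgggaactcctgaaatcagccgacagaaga
The second Tnfrsf9 window held 2 overlapping NF-kappaB matches at positions -43 and -42 from the start, an AP-1 match at -15, a gamma activated match at -136 and a RUNX match at 11. The first Tnfrsf9 window, Ctla4 and Cd274 held none of the 6 patterns, and Tnfrsf18 held a gamma activated match at -99. Among all 32851 windows in the table, 50.8% held the NF-kappaB pattern, 7.81% the AP-1 pattern, 3.44% the interferon pattern, 8.30% the gamma activated pattern, 1.38% the NFAT with AP-1 pattern and 16.8% the RUNX pattern. Of the 10 windows of members, 2, 2, 0, 3, 0 and 3 held them in that order. A match describes letters in these windows and is not a measured binding site.

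Ctla4 encodes a receptor that competes with CD28 for the ligands CD80 and CD86 and is carried at high level by regulatory T cells. It is annotated on chromosome 1 from 60887000 to 60915832 (GRCm38, GENCODE M21). Its reads were 0, 1, 20 and 11, so that both tumor libraries lay above both tumor-free ones. Without exercise, in cancer control over normal control (the tumor effect without exercise), its 20 reads stood 8.60-fold above the limit of 3 reads per library. The exact interval, which also covers the counting error of the 20 reads, started at a log2 ratio of 2.67. The deposited log2 values, which are log2(normalized count + 1) and understate changes of low genes, differed by 4.51. For cancer exercise over normal exercise, the tumor effect with exercise, the log2 read ratio was 3.81 (95% exact interval 1.02 to 9.23), and the deposited values differed by 2.89. The tumor libraries did not differ from each other beyond counting error, at a log2 difference of -0.72 for cancer exercise over cancer control and an interval of -1.98 to 0.36, but under scaling by library totals alone, which moved the median of all genes to -0.59, they did, at -1.29 (-2.59 to -0.25).

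Tnfrsf9 encodes 4-1BB, a receptor induced on activated T cells and NK cells and also found on regulatory T cells, dendritic cells and mast cells. It lies on chromosome 4 from 150914562 to 150946102 (plus strand). It had 16, 32, 362 and 49 reads, or 1.23, 2.50, 38.7 and 3.67 CPM. The single library of resting tumor-bearing lung thus stood far above the others. The step down from it to cancer exercise was larger than counting error under every scaling tried, whereas the smaller steps to normal exercise and on to normal control were larger on the scale of the deposited values but not under every alternative. Tumor without exercise raised Tnfrsf9 by 4.78 (interval of the log2 read ratio 4.15 to 5.69), a 27.5-fold difference on the scale of the deposited values. With exercise the tumor effect was 0.94 (0.29 to 1.65), inside the 2-fold limit, and under library totals alone it was 0.54 with an interval that held 0 (-0.12 to 1.24). Exercise without tumor (normal exercise over normal control) gave 1.07 (0.20 to 2.08). With the 1.47% share of the cancer control level taken out of normal exercise, this effect came inside the limit, at 0.76, and inside counting error (-0.14 to 1.81, from reads rounded to 26), and the tumor effect with exercise passed the limit, at 1.25. Exercise with tumor (cancer exercise over cancer control) gave -2.77 (-3.25 to -2.36). Camta1, an unrelated gene on the opposite strand that overlaps the annotated span of Tnfrsf9 but shares 0 exonic bases with it, had 223, 190, 220 and 204 reads and did not follow this pattern.

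Cd274 and Tnfrsf18 shared a pattern that ran against that of Tnfrsf9. Cd274, whose product PD-L1 engages PD-1, lies on chromosome 19 from 29367455 to 29388095 and had 56, 64, 16 and 39 reads. Tnfrsf18, whose product GITR is prominent on regulatory T cells, lies on chromosome 4 from 156026164 to 156028895 and had 63, 75, 16 and 40 reads. For both genes cancer control was the lowest library and the other 3 did not differ from their neighbors in the order beyond counting error on the scale of the deposited values. Cd274 fell by 1.39 (-2.34 to -0.62) and Tnfrsf18 fell by 1.55 (-2.50 to -0.80) in the tumor effect without exercise. In the exercise effect with tumor they rose by 1.32 (0.51 to 2.32) and by 1.36 (0.55 to 2.35). Both rises came inside the limit, at 0.74 (-0.10 to 1.71) and 0.78 (-0.06 to 1.74), and inside counting error under library totals alone. These comparisons share the cancer control library, so that a low value there enters both with opposite signs. The exercise effects without tumor were 0.30 for Cd274 and 0.36 for Tnfrsf18, with intervals of -0.24 to 0.85 and -0.14 to 0.87. The tumor effects with exercise were -0.36 (-0.98 to 0.23) for Cd274 and -0.55 (-1.15 to 0.01) for Tnfrsf18. Under library totals alone both were larger than counting error, at -0.76 (-1.39 to -0.18) and -0.95 (-1.56 to -0.40), where the median of all genes was -0.41. Under totals without the hemoglobin genes that of Tnfrsf18 was -0.64 (-1.24 to -0.08). Antisense transcripts, AC119228.1 and Gm16008, overlap Cd274 and Tnfrsf18 on the other strand, and the use of strand in counting was not stated.

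Icos encodes a receptor that sustains helper and regulatory T cells through its ligand ICOSL and lies beside Ctla4, on chromosome 1 from 60977927 to 61000320. Its reads were 37, 86, 26 and 43, and the highest value was that of exercised, tumor-free lung. Icos rose by 1.31 (0.76 to 1.93), a 2.47-fold difference, in the exercise effect without tumor. With tumor the exercise effect was 0.79 (0.08 to 1.58), inside the limit, so that the exercised library was the higher of each pair. Under library totals alone the latter was 0.21, with an interval that held 0 (-0.52 to 0.97), and without the hemoglobin genes in the totals it was 0.71, with an interval that reached 0. The tumor effects were -0.13 (-0.92 to 0.62) without exercise and -0.64 (-1.22 to -0.11) with exercise.

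Havcr2, whose product TIM-3 marks terminally exhausted T cells and is also made by macrophages and dendritic cells, lies on chromosome 11 from 46454935 to 46481255. It varied least among the members that passed the filter, with 47, 49, 67 and 63 reads. The deposited log2 values were 5.35 and 5.52 in the tumor-free libraries and 6.22 in each tumor library. The tumor effects of 0.86 without exercise (0.32 to 1.45) and 0.70 with exercise (0.15 to 1.28) were larger than counting error but inside the 2-fold limit. Neither exercise effect was larger than counting error, at 0.17 (-0.43 to 0.78) and 0.00 (-0.51 to 0.52). Under library totals alone the tumor effect with exercise was 0.29, with an interval that held 0 (-0.26 to 0.87), and the exercise effect with tumor was -0.60 (-1.12 to -0.09), close to the shifted median of all genes.

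Foxp3 could not be read on its own from these data. Its row held 119, 75, 158 and 99 reads, while the row of Ccdc22, a component of an endosomal sorting complex, held 116, 72, 158 and 96. The rows differed by 3, 3, 0 and 3 reads. Both genes lie on the X chromosome, Foxp3 on the plus strand from 7573644 to 7595245 and Ccdc22 on the minus strand from 7593809 to 7605517, so that their 3' ends overlap. GENCODE M21 gives them 590 exonic bases in common, between 7593809 and 7595055, out of 4577 exonic bases of Foxp3. The libraries were primed at the poly(A) tail, which places reads at 3' ends, and a read in the shared bases counts for both rows when strand is not used. Of the 11216 genes with a mean normalized count of at least 50, Ccdc22 had the profile nearest to that of Foxp3, at a distance of 0.042 between centred log2 profiles. The next were Maml1 (0.047) and Wdr90 (0.094) and 712 genes lay within 0.5, so that the profile alone does not single out Ccdc22. Foxp3 and Ccdc22 transcripts cannot be told apart in these rows, and the Foxp3 differences of -0.55 and -0.58 (exercise without and with tumor) and of 0.77 and 0.74 (tumor without and with exercise) are not taken as changes of Foxp3. All 4 were inside the 2-fold limit.

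**Figure D2:**
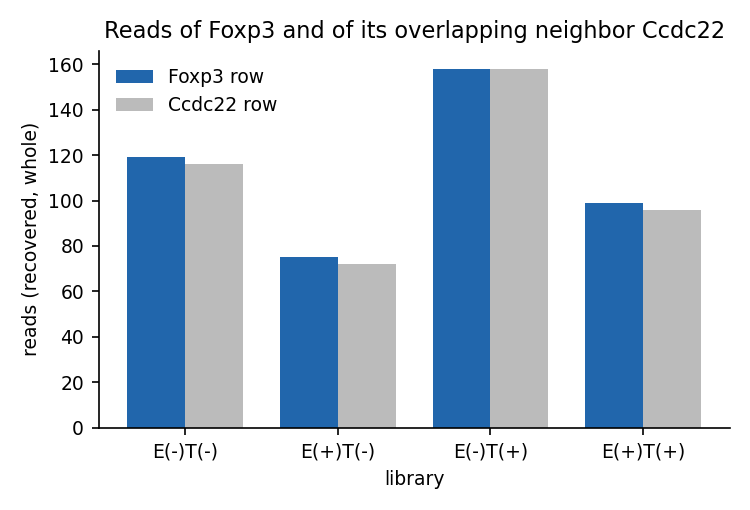
Whole reads recovered for the Foxp3 row (blue) and the Ccdc22 row (grey) in each library. The bars differ by at most 3 reads within a library, while they range from 72 to 158 across libraries.

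Counted together, the members passed the 2-fold limit most often in the comparisons that hold cancer control, as did genes in general. In the exercise effect without tumor 2 of the 7 filtered members were higher (Icos and Tnfrsf9) and 0 lower, against 5.28% higher and 4.7% lower of all 15164 genes (9.98% in either direction). In the tumor effect without exercise 2 were higher (Ctla4 and Tnfrsf9) and 2 lower (Cd274 and Tnfrsf18), against 20.6% and 25.7%, or 46.2% in all. The exercise effect with tumor had 2 higher (Cd274 and Tnfrsf18) and 1 lower (Tnfrsf9), where 24.3% and 17.7% of all genes passed, 42% in all. Scaled by library totals alone this comparison had 0 higher and 3 lower, Ctla4 (-1.29), Foxp3 (-1.18) and Tnfrsf9 (-3.37), while 16.4% of all genes were higher and 35.4% lower. The tumor effect with exercise had 1 higher (Ctla4) and 0 lower, where 14.9% and 13% passed, 27.8% in all. Ctla4 met the filter only through the tumor libraries, where it was high, so its 2 tumor calls follow in part from the filter. The median log2 difference of the 7 members was 0.36, 0.77, 0.00 and 0.70 in these comparisons, and that of all filtered genes 0.00, -0.03, 0.01 and 0.00. With Ctla4 at its bound the medians were the same. Without the Foxp3 row, the medians of the other 6 members were 0.63, 0.37, 0.40 and 0.17. All 10 calls also had an exact interval that excluded 0. Such intervals were found for 3, 6, 5 and 5 of the 7 members, against 43.9%, 76.1%, 71.9% and 64.4% of all genes, and for 2, 5, 4 and 4 of 6 without Foxp3. The exercise effects with and without tumor differed by more than counting error for 3 of the 7 (Cd274, Tnfrsf9 and Tnfrsf18) and for 64.2% of all genes, so that the share among members was not above that of genes in general. Cd274 and Tnfrsf18 lost this under library totals alone and with median-of-ratios size factors, where their intervals held 0, and Icos gained it under library totals alone.

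**Figure D3:**
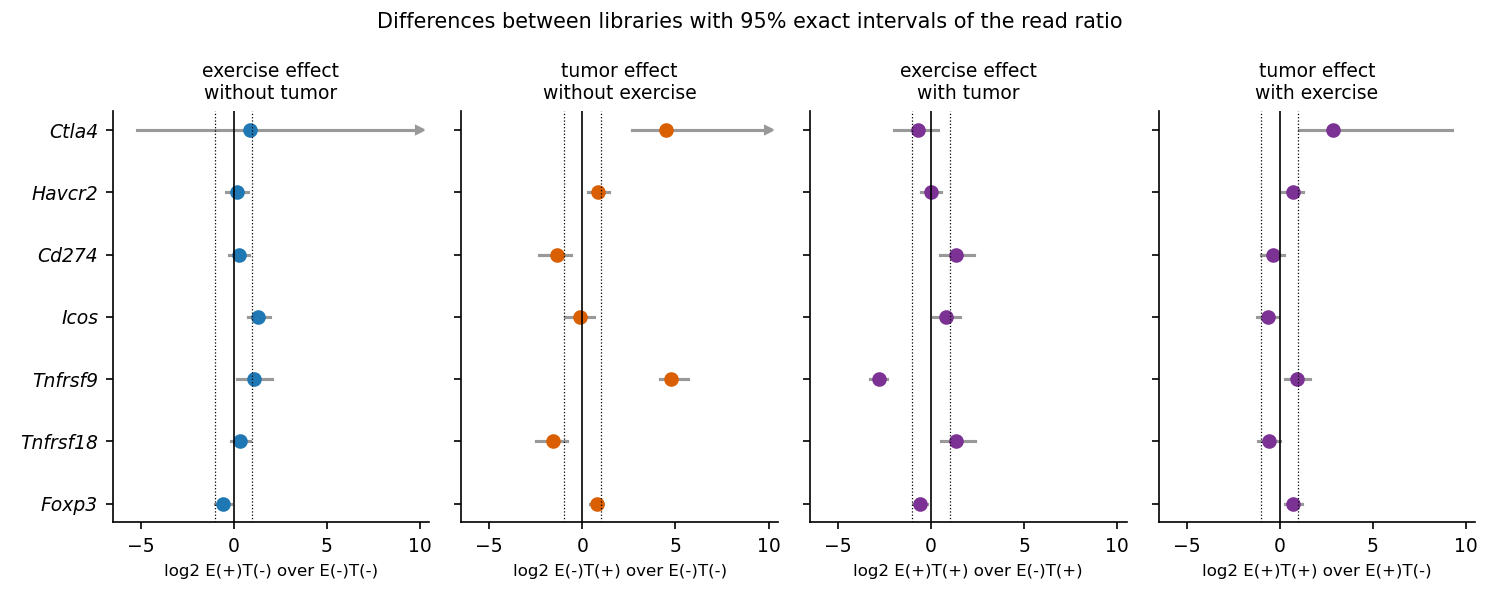
Log2 difference of the deposited values (points) for the 7 members past the filter in the 4 comparisons, with the 95% exact interval of the read ratio (grey lines, arrowheads where unbounded); dotted lines mark 2-fold. The Tnfrsf9 points stand at 4.78 in the tumor effect without exercise and at -2.77 in the exercise effect with tumor.

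The summed reads of T cell marker genes were lowest in cancer control. In bulk lung, fewer cells of a type and less RNA per cell cannot be told apart. The T cell list, 17 genes of which Trat1 had no read in any library, summed to 1998, 1492, 304 and 1057 reads. In the tumor effect without exercise 13 of its 16 filtered genes were lower and 0 higher, with a median of -2.78, where 25.7% of all genes were lower and 20.6% higher. Cd3g, a chain of the T cell receptor complex, had 62, 59, 0 and 13 reads. With exercise in tumor-bearing lung 13 of 16 were higher, with a median of 2.42, against 24.3% of all genes. Ratios of reads within a library do not depend on the scaling between libraries. Per 100 T cell marker reads, Ctla4 stood at 0, 0.067, 6.58 (exact interval 3.96 to 10.3) and 1.04 (0.52 to 1.87). Tnfrsf9 stood at 0.80, 2.14, 119 and 4.64, with an interval of 102 to 139 in cancer control. Icos stood at 1.85, 5.76, 8.55 and 4.07, and normal control was the low library with an interval of 1.30 to 2.56 against 4.58 to 7.17 in normal exercise. Pdcd1 stood at 0.20, 0.34, 1.97 and 0 and Havcr2 at 2.35, 3.28, 22.0 and 5.96. Cd274 (2.80, 4.29, 5.26 and 3.69) and Tnfrsf18 (3.15, 5.03, 5.26 and 3.78) moved the least of the filtered members on this scale. All 10 members together had 17.1, 25.9, 222 and 32.5 reads per 100 T cell marker reads, and 11.2, 20.9, 170 and 23.2 without Foxp3. The ratio was highest in cancer control with its 304 T cell marker reads as the denominator. It was also highest there with only Cd3d, Cd3e, Cd3g and Cd247, which had 59. These genes belong to the list, and both denominators were lowest in cancer control, so the second is not a separate check. Of the 674 member reads in cancer control, 362 were of Tnfrsf9 and 158 of the Foxp3 row.

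**Figure D4:**
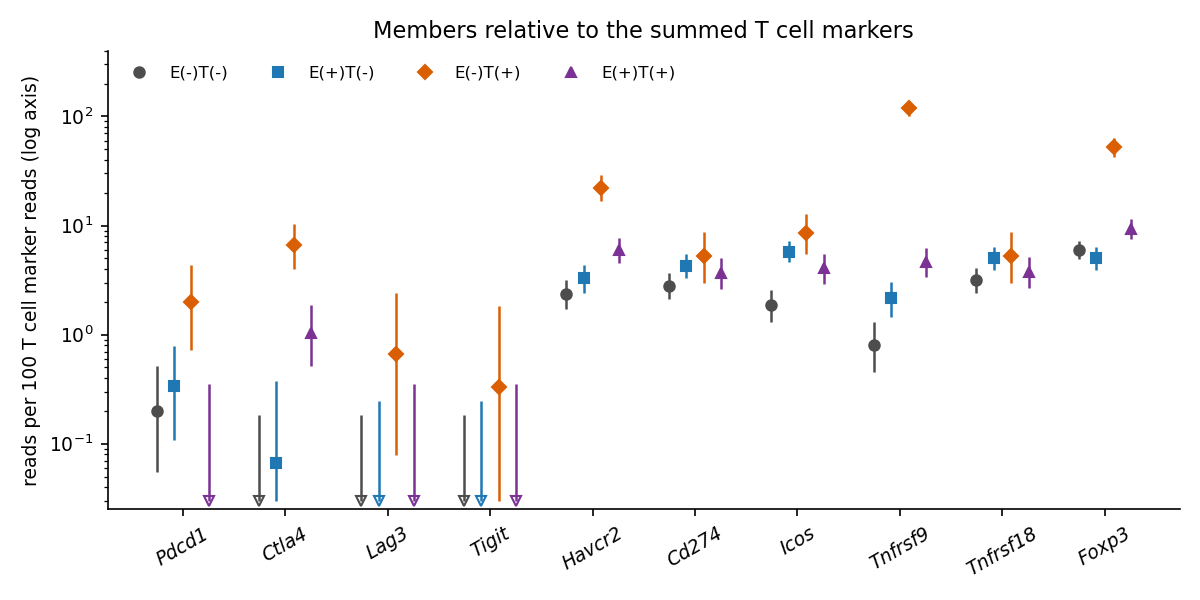
Reads of each member per 100 summed reads of the T cell markers in the same library, on a log axis; vertical lines are 95% exact intervals and open triangles mark 0 reads. Tnfrsf9 reaches 119 in cancer control, against 0.80 to 4.64 in the other libraries.

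Other cell populations moved with the same libraries, and their part in the member values was not tested. All 12 genes of cell division were higher (median 4.68) in the tumor effect without exercise, and they were lower in the exercise effect with tumor in 11 of 12 with a median of -1.79, against 20.6% of all genes higher and 17.7% lower in these comparisons. The genes nearest to Tnfrsf9 in profile among the 11216 were Mastl, a mitotic kinase (distance 0.21; 7, 18, 196 and 26 reads), 1700012B09Rik (0.22) and Ncapg, a condensin subunit (0.24; 12, 21, 285 and 41 reads), and 13 genes lay within 0.5. For Havcr2 the nearest were Surf2 (0.052), Cbr4 (0.072) and Wdr45b (0.073), with 1016 genes within 0.5. These distances cover 4 libraries and describe likeness only. The macrophage and dendritic cell list went in both directions in the tumor effect without exercise, with 4 of 16 genes higher, led by Marco (4.27) and C1qb (3.81), and 6 lower, led by Cd209a (-5.12) and Itgax (-4.63), where 20.6% of all genes were higher and 25.7% lower. Its summed normalized counts of 13819, 14133, 16434 and 14192 varied little, but the sum joins opposite changes. Lyz2, with the most reads of the list in normal control, had 10973, 10940, 2902 and 4400. C1qa, C1qb and C1qc rose by 3.49, 3.81 and 3.52 in the tumor effect without exercise. The NK cell list was lower in 7 of 9 filtered genes in the tumor effect without exercise and in 8 of 9 in the tumor effect with exercise, against 25.7% and 13% of all genes. Prf1 (perforin), with 1, 7, 15 and 2 reads, was higher by 3.30 in the tumor effect without exercise, but it met the filter only through cancer control, where it was high, so this call follows in part from the filter. All 7 filtered B cell genes were lower in the tumor effect without exercise, against the same 25.7%, and Ms4a1, Cd79a, Pax5 and Blk had 0 reads in cancer control. Neutrophil genes were higher in 9 of 10 in the exercise effect with tumor, against 24.3% of all genes. The other, Ltf, was lower by 1.40 (-1.54 to -1.26), from 1560 to 554 reads, where 17.7% of all genes were lower. In the tumor effect with exercise 10 of 10 were higher, against 14.9%. They were also higher in 7 of 10 in the exercise effect without tumor, against 5.28%. In the tumor effect without exercise 8 of 10 were higher, against 20.6%. Their summed reads were 4836, 13614, 10962 and 180041, of which S100a8 and S100a9 held 77269 and 75784 in cancer exercise.

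**Figure D5:**
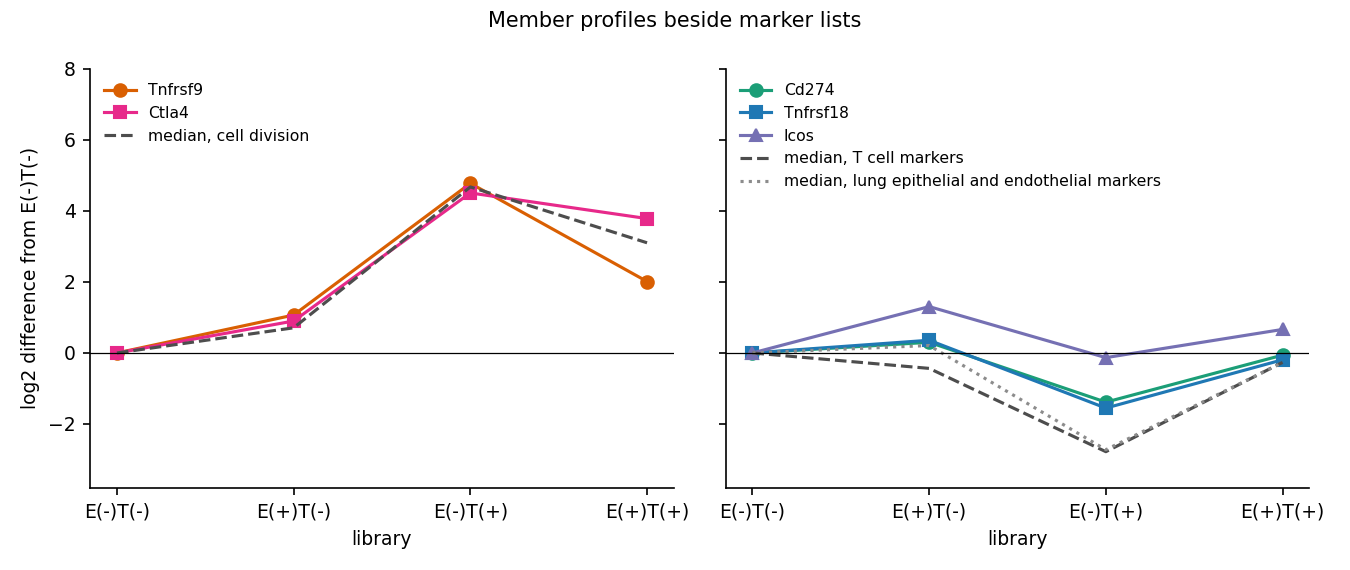
Log2 difference of members from normal control in each library (points joined by lines) beside the median of marker lists (dashed or dotted). Left, Tnfrsf9 and Ctla4 peak in cancer control as the cell division list does; right, Cd274 and Tnfrsf18 are lowest in cancer control, as are the T cell and lung lists, and Icos is highest in normal exercise.

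The ligands and partner receptors of the members were read from lists of related genes. Ligands of CTLA-4 were sparse or moderate: Cd80 had 1, 4, 5 and 9 reads, and Cd86 had 31, 27, 16 and 51. Cd86 was highest in cancer exercise, by 1.70 (0.93 to 2.68) over cancer control and by 1.23 over normal exercise. Pdcd1lg2, the second PD-1 ligand, had 5, 9, 9 and 1 reads and fell by 2.25 in the exercise effect with tumor (-8.53 to -0.23). Among partners of TIGIT, Pvr rose in the exercise effect without tumor by 1.17 (0.91 to 1.44) and in the tumor effect without exercise by 1.25 (0.99 to 1.53), on 173, 361, 321 and 371 reads, so that normal control was the low library. Nectin2 fell by 1.54 in the tumor effect without exercise and rose by 1.80 in the exercise effect with tumor. Cd226, the activating receptor that shares these ligands with TIGIT, had 29, 60, 5 and 101 reads and rose by 4.18 (3.16 to 6.08) in the exercise effect with tumor. Its inhibitory relative Cd96 had 22, 16, 9 and 24 reads. Lgals9 and Ceacam1, ligands of TIM-3, rose in the exercise effect with tumor by 1.21 and 1.96. In the tumor effect without exercise they stood at -0.47 (-0.68 to -0.28) and -1.30 (-1.63 to -0.99). Lgals9 had 581, 813, 324 and 705 reads and Ceacam1 348, 281, 109 and 400, so that cancer control, shared by these comparisons, was the low library. Fgl1, a ligand of LAG-3 known chiefly as a liver product, had 4, 3, 7 and 70 reads, and was higher in cancer exercise than in cancer control by 3.23 (2.30 to 4.78) and than in normal exercise by 4.48 (3.29 to 7.20).

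Of the ligands of the costimulatory members, Icosl alone had enough reads to compare. It fell by 3.23 (-4.38 to -2.46) in the tumor effect without exercise, from 144 to 11 reads, and rose by 3.60 with exercise in tumor-bearing lung, to 135, whereas Icos itself had 37, 26 and 43 reads in those libraries. Tnfsf9, the ligand of 4-1BB, had 1 read in cancer control and 0 elsewhere, and Tnfsf18, the ligand of GITR, had 4, 5, 0 and 0. Differences of the latter pair were not detectable at this depth. Cd28 had 65, 49, 18 and 42 reads and fell by 1.44 (-2.33 to -0.71) in the tumor effect without exercise. Tnfrsf4 (OX40), a relative of Tnfrsf9 and Tnfrsf18 found on activated and regulatory T cells, had 7, 14, 28 and 12 reads and rose by 2.20 (1.14 to 3.81) in the tumor effect without exercise, 1 of 9 filtered genes of the costimulatory list to do so, while 7 were lower. Exercise with tumor raised 6 of these 9, led by Cd226 and Slamf1 (3.76), and Tnfrsf4 alone was lower, by -1.07. Without tumor the exercise effect had 2 higher, Cd226 and Tnfrsf4 (1.01, with an interval of -0.29 to 2.66), and Tnfrsf4 came inside the limit, at 0.97, with the cancer control share taken out. In the tumor effect with exercise 3 were higher and 2 lower, among the latter Slamf6 (-1.13, on 7 and 2 reads, interval -4.76 to 0.93). Slamf6 was also lower in the tumor effect without exercise (-1.43, on 9 and 2 reads, interval -5.05 to 0.47). It met the filter only through the tumor-free libraries, where it was high, so its calls follow in part from the filter. Of all genes, 20.6% were higher and 25.7% lower in the tumor effect without exercise, 24.3% and 17.7% in the exercise effect with tumor, 5.28% and 4.7% in the exercise effect without tumor, and 14.9% and 13% in the tumor effect with exercise.

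Of the coinhibitory list, 21 of 24 genes passed the filter. In the tumor effect without exercise 5 were higher and 8 lower, with Cd80 (1.88, on 1 and 5 reads, an interval of -0.47 to 8.25) and Vtcn1 (1.61) at the top and Btla (-4.83) and Cd160 (-2.28) at the bottom. In the exercise effect with tumor 13 were higher and 3 lower, with a median of 1.39 where all genes had 0.01, and Btla (4.32; 1 against 36 reads) and Fgl1 led. The shares of all genes in these comparisons were 20.6% higher and 25.7% lower, and 24.3% higher and 17.7% lower. The exercise effect without tumor had 2 higher, Pvr and Cd80 (1 and 4 reads, interval -1.22 to 7.73), and 2 lower, Cd276 (-1.80) and Cd200r1 (-1.36), against 5.28% and 4.7% of all genes. The tumor effect with exercise had 6 higher, with Vsir (1.42) behind Fgl1, and 3 lower, with Pdcd1lg2 (-2.04, on 9 and 1 reads, interval -8.28 to 0.03) and Cd160 (-1.45) lowest, against 14.9% and 13% of all genes. Cd80 met the filter only through cancer exercise, where it was highest, so its calls follow in part from the filter.

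The regulatory T cell list held genes other than Foxp3 that such cells carry, and 13 of its 17 genes passed the filter. Of these, 4 were higher and 5 lower in the tumor effect without exercise (median -0.66), with Il10 among the higher on 0 and 1 reads, where 20.6% of all genes were higher and 25.7% lower. In the exercise effect with tumor 6 were higher and 1 lower (median 0.68), where 24.3% and 17.7% of all genes were. The exercise effect without tumor had 1 higher, Il1rl1 (1.49), and 1 lower, Itgae (-1.22), against 5.28% and 4.7% of all genes, and the tumor effect with exercise had 4 higher and 2 lower, against 14.9% and 13%. Il2ra, the high-affinity IL-2 receptor chain of regulatory T cells, had 17, 15, 10 and 12 reads, with all 4 comparisons inside counting error. Ikzf2 (Helios) had 95, 94, 72 and 39 reads. Ccr8 and Itgb8 had no read in any library, and Ccr4 had 6, 2, 0 and 0. Il1rl1, the IL-33 receptor, which mast cells and type 2 lymphoid cells also carry, had 27, 72, 917 and 115 reads, and rose by 5.40 (4.90 to 6.06) in the tumor effect without exercise and fell by 2.89 (-3.19 to -2.62) in the exercise effect with tumor, with the same order of libraries as Tnfrsf9. Areg (1.74) was the next highest with tumor, and Itgae (-3.30) and Nrp1 (-3.25), the latter abundant in endothelium, were lowest. Il10 had 0, 0, 1 and 18 reads and Ebi3 35, 40, 16 and 98, and these led the 6 genes that were higher in the exercise effect with tumor (3.33 and 2.63). Il10 met the filter only through cancer exercise, where it was high, so its calls follow in part from the filter.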

How the data were processed

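Lung RNA of 4 groups was measured in 1 library each. The authors prepared QuantSeq 3' libraries, aligned reads with Bowtie2 (build mm10 per the labels), counted with bedtools and normalized with edgeR's quantile method; tool versions, annotation and strand are not given in the sources used here. The authors deposited each gene's value as log2 of the normalized count plus 1, with 3 decimals.

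Whole reads were recovered by inverting this adjustment in Python 3.11.15 with scipy 1.17.1. Library sizes and a dispersion of 0.372 were fitted to 12 low patterns and 1500 rows, and the recovered reads gave back 100% of the values within 0.001. In simulated libraries of 23282 genes, 100% of counts up to 500 were recovered. Read totals came to 13017441 (normal control), 12780382 (normal exercise), 9354530 (cancer control) and 13368047 (cancer exercise), with 94.5% of values resolved to 1 read.

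Comparisons were differences of deposited log2 values, past the limit at 2-fold where normalized counts averaged 4 or more, after the study's own limits. With 1 library per group no test between groups was possible. Exact (Clopper-Pearson) 95% intervals of read ratios, scaled by effective library sizes, cover counting error only; reads without molecular identifiers are not independent molecules. Overlapping, antisense and near-identical genes can share reads. Named were all members, their ligands or partner receptors, and for the 3 most abundant members the 3 nearest profiles. From some of the lists, but not all, up to 2 of the largest rises and falls were named. Further names were chosen after their values were seen. Alternatives were another pseudocount, filters, fold limits and scalings; removal of hemoglobin, of the cancer control share and of Foxp3, and other scalings of the counting intervals and of the difference between exercise effects, were added after seeing the data. Members and the 12 gene lists were chosen with earlier results of these data known. Gene positions are from GENCODE M21 (GRCm38) and promoter windows from RefSeq (GRCm38.p6).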

Additional observations from a re-analysis of the deposited data

Results flagged for a closer look

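Of the 7 filtered members, 3 had exercise effects that differed between mice with and without tumor by more than counting error, judged by the exact interval of the ratio of read ratios, as did 64.2% of the 15164 filtered genes (approximate intervals for the 8574 genes with a count of 200 or more). With 1 library per group the differences were not tested against replicates. For Tnfrsf9 the exercise effect with tumor differed from that without tumor by -3.83 on the log2 scale (interval -4.96 to -2.87). It went from 1.07 without to -2.77 with tumor, and these were opposite directions. The effect without tumor came inside counting error with the cancer control share taken out, at 0.76 (-0.14 to 1.81), so its direction was less certain. The difference of the 2 exercise effects was not recomputed with that share taken out. For Cd274 the difference was 1.02 (0.02 to 2.16), from 0.30 to 1.32. For Tnfrsf18 it was 1.003 (0.02 to 2.12), from 0.36 to 1.36. For Cd274 and Tnfrsf18 this depended on the scaling: under library totals alone the differences were 0.53 (-0.50 to 1.64) and 0.50 (-0.50 to 1.60), and with median-of-ratios size factors 0.99 (-0.02 to 2.12) and 0.97 (-0.02 to 2.08), so that the intervals held 0. Under library totals without hemoglobin they were 1.03 (0.03 to 2.17) and 1.01 (0.03 to 2.12), and the intervals excluded 0. Tnfrsf9 kept its direction under these 3 scalings, at -4.35, -3.87 and -3.83, with intervals below 0. Under library totals alone the interval of Icos also lay below 0, at -1.99 to -0.06. In all of them the cancer control library, with 304 T cell marker reads, enters the difference.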

How the results depend on the processing

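No paired analysis was possible because each group had 1 library. Of the single-member differences recomputed under other scalings and pseudocounts, and leaving out those with an unbounded interval (all of Lag3 and Tigit, some of Pdcd1 and Ctla4), 123 stayed within their exact interval and 3 moved, all in the exercise effect with tumor under library totals alone (Tnfrsf9 to -3.37, Foxp3 to -1.18 and Havcr2 to -0.60). No difference past 2-fold changed sign. Library totals alone moved the all-gene median of the exercise effect with tumor to -0.59, and that of the tumor effect with exercise to -0.41. In the former Cd274 and Tnfrsf18 then stood at 0.74 and 0.78, inside the limit but above the shifted median.

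The 2 members past 2-fold in the exercise effect without tumor became 1 with a pseudocount of 4, under library totals, under totals without hemoglobin, after the cancer control share was taken out and at a mean count of at least 50, and 0 at 4-fold, but 3 by the exact interval (2 higher, 1 lower) and 3 at 1.5-fold. Tnfrsf9 was the call lost, at 0.93, 0.98, 0.98 and 0.76 in the first 4 of these. In the same 4 settings 3.48%, 4.77%, 4.68% and 4.87% of all genes were higher, and 3.18%, 5.30%, 5.30% and 5.33% lower. At a mean count of at least 50 Icos was lost instead. The 4 in the tumor effect without exercise became 1 at a mean count of at least 50 and 2 at 4-fold. They became 6 by the exact interval and at 1.5-fold, with Havcr2 and Foxp3 added. With no filter they also became 6, but there Lag3 and Tigit were added, on 2 and 1 reads in cancer control. The 3 in the exercise effect with tumor (2 higher, 1 lower) were 0 higher and 3 lower under library totals, where 16.4% of all genes were higher and 35.4% lower. They became 6 with no filter, where the sparse Pdcd1, Lag3 and Tigit were added as lower. They became 1 at a mean count of at least 50, 5 by the exact interval, 5 at 1.5-fold and 1 at 4-fold. The 1 in the tumor effect with exercise became 2 under library totals (Icos lower, where 9.5% of all genes were higher and 24.2% lower), after the share was taken out (Tnfrsf9 higher) and with no filter (Pdcd1 lower). It became 0 at a mean count of at least 50, and 5 by the exact interval and at 1.5-fold. After the share was taken out, 15.6% of all genes were higher and 12.7% lower in the tumor effect with exercise. Exact intervals excluded 0 for 43.9%, 76.1%, 71.9% and 64.4% of all genes in the 4 comparisons, in the order given here. Shares of all genes were not worked out for the other filters and fold limits. The member counts under those settings are therefore not read against genes in general.

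Member reads per 100 reads of Cd3d, Cd3e, Cd3g and Cd247 were, by library in the order of the report, 66.0, 96.5, 1142 and 109, and per 100 T cell marker reads without Foxp3 they were 11.2, 20.9, 170 and 23.2. Those Cd3 genes are part of the T cell marker list, so they are not a separate check of it. Counting error limits members under about 20 reads, and nothing here measures variation between mice.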

Other observations

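Transcription factors of T cell activation and exhaustion were lower in 8 of 15 genes in the tumor effect without exercise and higher in 0, with Tbx21 (-3.65) and Lef1 (-3.31) lowest, where 25.7% of all genes were lower and 20.6% higher. Id2 and Id3, with 3547 and 3786 reads in normal control, each exceeded the 1998 summed reads of the T cell markers there. The counts of this list are therefore not read as a state of T cells. Exercise with tumor raised 9 of 15, against 24.3% of all genes, led by the activity-induced receptors Nr4a3 (3.65) and Nr4a2 (3.23), which many cell types induce. Tox, which drives exhaustion, had 33, 16, 13 and 19 reads. In the tumor effect with exercise 5 were higher and 3 lower, with Tbx21 at -3.23, against 14.9% and 13% of all genes, and in the exercise effect without tumor none of the 15 passed 2-fold, against 9.98% of all genes.

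Genes of the interferon gamma response were lower in 9 of 15 in the tumor effect without exercise, with Cd74 (-3.89) and Ifng (-2.92; 8 and 0 reads) lowest, while the chemokine Cxcl10 was higher by 3.29, against 25.7% of all genes lower and 20.6% higher. Ifng met the filter only through the tumor-free libraries, where it was highest, so this call follows in part from the filter. With exercise and tumor 9 of 15 were higher, against 24.3% of all genes, led by Cxcl9 (4.75, on 8 against 227 reads) and Gbp5 (3.38). Ciita was lower on 3 and 0 reads, with an interval that held 0 (unbounded below, up to 1.37). In the exercise effect without tumor 0 were higher and 1 lower, Cxcl9 (-1.805), against 5.28% and 4.7% of all genes. The tumor effect with exercise had 3 higher and 2 lower, against 14.9% and 13%. Cxcl9 and Cxcl10, which attract T cells, were highest in cancer exercise, with 227 and 282 reads, and Ciita, the regulator of MHC class II genes, had 34, 21, 3 and 0 reads.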
